A study of Mus musculus with 10 samples.

Results

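The peptide hormones that pancreatic islets make outside the insulin-producing β cell were examined in RNA sequencing libraries of mouse islets. The genes were chosen by symbol: Gcg, Sst, Ppy, Pyy, Npy, Ghrl, Gast and Cck, 8 symbols in all. Of these, 6 were found among the 17945 named rows of the deposited table, and Gast and Cck were not analysed here. The tested animals were 18-week-old C57BL/6 mice labelled knockout, in which the inducible driver Pdx1-CreER was combined with Grk5 flox/flox alleles, giving 5 libraries. The controls, also C57BL/6 and 18 weeks old, were labelled floxed control and by the design text carried the Grk5 flox/flox alleles without the driver, giving 5 libraries. By their labels, both groups share the floxed alleles and differ by the driver as well as by the deletion it was meant to make. The Pdx1 promoter is active in adult β cells and, as background, in part of the somatostatin cells. The labels state neither a tamoxifen treatment nor the sex of the animals, and do not say that each library came from its own animal.

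As background, islets hold several endocrine cell types around the β cells, each defined by the hormone it secretes. Alpha cells make glucagon, which raises hepatic glucose output, delta cells make somatostatin, which restrains the neighbouring alpha and β cells, and PP cells make pancreatic polypeptide. Peptide YY and neuropeptide Y belong to the same peptide family as pancreatic polypeptide, while ghrelin marks the rare epsilon cells, which are mainly seen before birth. Knockout and control are used below for the libraries that carry those labels.

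The labels were checked on the targeted gene. Grk5 averaged 161 ± 74.9 normalized counts in knockouts and 242 ± 112 in controls (SD, n = 5 each), with an adjusted p of 0.955 by limma. The groups overlapped, so directions below are those of the labels. Esr1, part of which is fused to Cre in CreER drivers, lay between 1516.7 and 3176.8 in the knockouts, against 2495.0 in control 2, 773.5 in control 5 and 0 to 10.5 in controls 1, 3 and 4. The value of control 2 lies within the knockout range and that of control 5 far above the other controls, which goes against a label without the driver. The labels of controls 2 and 5 are therefore in doubt, and every comparison below keeps them as labelled. Results without them are also given for the hormone genes tested, their ratios to insulin, their correlations, Pdyn and Vip. The number of genes passing is given without them too. Values of the other genes and of the gene lists include both controls. In controls 2, 3 and 5, 11.4% to 15.6% of low values lay midway between whole multiples of the library's commonest low value, against 0.660% to 1.13% in the other 7 libraries, and results that turn without all 3 are given too. The 2 insulin genes together took 12.3% to 17.8% of a knockout library and 14.1% to 15.6% of a control library. Normalized totals were 5534386 to 7358040.0 in knockouts and 5962289 to 6793172 in controls. Only 39.1% to 64.4% of low values were whole multiples of the commonest one (within 0.01), so whole reads could not be recovered and the depth is known only roughly. If that commonest value stands for 1 read, the libraries hold about 2072839 to 10951044 reads in knockouts and 4712201 to 8298129 in controls, with the fewest in knockout 1. Of the 11711 genes tested, 19.5% were listed at 0 in knockout 1, against 1.84% to 7.04% in each of the other 9 libraries, so knockout 1 has the coarsest view of low genes.

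Gene positions below were read from the GENCODE M21 annotation of GRCm38. The authors' own build is not stated in the labels. Gcg lies on chromosome 2 from 62474530 to 62483650 on the minus strand, and Sst on chromosome 16 from 23889573 to 23890958 on the minus strand. Ppy (102099930 to 102101319) and Pyy (102106676 to 102107832) are neighbours on the minus strand of chromosome 11, with 5356 bases and 0 annotated genes between them. Npy spans 49822710 to 49829507 of chromosome 6, plus strand, and Ghrl is on the same chromosome from 113716119 to 113719880 on the minus strand. All are protein-coding. Only Ghrl overlaps other annotated genes, Gm26982 and Gm44033 on the opposite strand, and the labels do not say whether reads were counted by strand.

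The 250 bases before the start of each gene are printed for the 4 abundant hormones, whose levels moved together across libraries, and for Npy, which had the largest difference between the groups among the hormone genes tested. The sequences are RefSeq's on GRCm38.p6, 5′ to 3′ on the gene's strand, with letters that match a searched motif in capitals. RefSeq's start of Sst lies 114 bases inside the gene as GENCODE places it, so that many bases of its window are within the GENCODE gene, while for Ppy, Pyy and Npy the starts coincide.
Gcg, chr2:62483654-62483903, minus strand: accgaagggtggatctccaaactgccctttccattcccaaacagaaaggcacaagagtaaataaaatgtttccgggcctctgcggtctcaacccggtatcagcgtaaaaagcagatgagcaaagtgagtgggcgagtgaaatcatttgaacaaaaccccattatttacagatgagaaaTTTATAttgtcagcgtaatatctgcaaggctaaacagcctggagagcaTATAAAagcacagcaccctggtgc
Sst, chr16:23890845-23891094, minus strand: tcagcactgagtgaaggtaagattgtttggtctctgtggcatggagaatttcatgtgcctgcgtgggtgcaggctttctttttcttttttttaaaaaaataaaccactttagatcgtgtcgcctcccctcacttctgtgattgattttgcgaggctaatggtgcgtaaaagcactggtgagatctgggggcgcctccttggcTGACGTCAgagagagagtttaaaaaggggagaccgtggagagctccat
Ppy, chr11:102101320-102101569, minus strand: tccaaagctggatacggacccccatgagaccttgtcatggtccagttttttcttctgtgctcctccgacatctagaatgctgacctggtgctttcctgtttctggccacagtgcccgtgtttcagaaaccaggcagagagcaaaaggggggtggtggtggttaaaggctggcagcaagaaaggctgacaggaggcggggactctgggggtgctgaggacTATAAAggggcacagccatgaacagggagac
Pyy, chr11:102107833-102108082, minus strand: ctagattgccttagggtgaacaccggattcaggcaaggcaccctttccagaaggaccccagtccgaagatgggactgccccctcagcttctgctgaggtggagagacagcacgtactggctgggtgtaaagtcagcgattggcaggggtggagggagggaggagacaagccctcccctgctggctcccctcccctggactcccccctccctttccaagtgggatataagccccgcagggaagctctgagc
Npy, chr6:49822460-49822709, plus strand: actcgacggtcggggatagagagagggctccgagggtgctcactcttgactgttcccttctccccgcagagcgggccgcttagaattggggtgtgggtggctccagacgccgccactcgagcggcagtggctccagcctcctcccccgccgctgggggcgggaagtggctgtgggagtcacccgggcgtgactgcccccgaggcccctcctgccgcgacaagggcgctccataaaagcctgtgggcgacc
For Pyy the outermost of the 2 starts in the table was used.

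The motifs searched on both strands were chosen after the sequences had been seen: the cAMP response element TGACGTCA, its shorter core TGACG, the TATA box TATAAA, the MEF2 site and the AP-1 site TGANTCA. Sst holds the full cAMP response element from base -48 to base -41, counted from the start, and both of its TGACG matches lie inside that element. Of 32851 mouse promoter windows of the same length, 1.55% hold TGACGTCA and 17.8% hold TGACG. Gcg holds TATAAA at -24 to -19 and, on the other strand, at -72 to -67, and Ppy holds it at -31 to -26, letters found in 12.4% of windows. Pyy and Npy hold none of the 5 motifs. No sequence printed here holds the MEF2 site or TGANTCA, found in 3.20% and 6.75% of windows. A match describes letters and is not evidence of a bound site.

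Levels were set against each other per kilobase of exon in that annotation. Glucagon was the most abundant of the group, at 52547 normalized counts per kb over the 10 libraries (range 40351 to 64587). Pancreatic polypeptide followed at 21624 (9258 to 39117) and somatostatin at 14466 (11853 to 18009), and these 2 neighbours in the order overlapped. Peptide YY, at 5918 (3891 to 9559), did not overlap somatostatin. Npy and Ghrl, at 40.5 and 6.88 per kb, were near the bottom of the table's range and overlapped each other at 0. For scale, the insulin genes Ins2 and Ins1 stood at 486441 and 289521 per kb. Together the 6 hormone genes made up 1.58% ± 0.34 of a knockout library and 1.71% ± 0.33 of a control library (SD, n = 5 each), and Gcg alone was 76.9% ± 3.44 of that sum in knockouts and 75.3% ± 2.73 in controls. Fewer cells of a type and less RNA per cell cannot be told apart in such bulk samples.

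Glucagon transcript did not separate the groups. Glucagon's gene Gcg was 64985.4, 60283.6, 71950.3, 91877.6 and 88803.3 normalized counts in knockouts 1 to 5. In controls 1 to 5 it was 71060.8, 91406.2, 77925.8, 70268.4 and 96492.3. The groups overlapped almost entirely, with the lowest library a knockout and the highest a control, and the whole spread was 1.60-fold. The groups differed by -0.12 ± 0.13 on the log2 scale (SE, adjusted p = 0.965 by limma), with 95% limits that correspond to 0.755 to 1.13 of the control level. An exact 2-sided permutation test gave p = 0.460. Without controls 2 and 5 the estimate turned to 0.03.

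Somatostatin was the steadiest of the group. Sst was 9275.5, 9951.7, 8546.1, 10748.9 and 11298.6 in knockouts 1 to 5, against 10231.8, 12984.4, 9755.9, 9557.3 and 11947.2 in controls 1 to 5. Its coefficient of variation over the 10 libraries was 12.8%, next to 16.2% for Gcg, 33.2% for Pyy and 42.2% for Ppy. Knockouts minus controls gave -0.13 ± 0.11 on the log2 scale (SE, adjusted p = 0.956 by limma, exact permutation p = 0.286), with limits of 0.780 to 1.08 of the control level. Its direction also turned without controls 2 and 5, to 0.01.

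Pancreatic polypeptide varied most among the abundant hormones, and 1 knockout library set its spread. Ppy was 4629.2, 7151.4, 8377.6, 19558.3 and 8219.9 in knockouts 1 to 5, a mean of 9587 ± 5772 (SD, n = 5). In controls 1 to 5 it was 12588.3, 16343.1, 8504.8, 9531.3 and 13217.5, a mean of 12037 ± 3122 (SD, n = 5). Knockout 4 was the highest of all 10 libraries, while the other 4 knockouts lay below the lowest control. On the log2 scale Ppy differed by -0.46 ± 0.36 (SE, adjusted p = 0.955 by limma, exact permutation p = 0.270), with limits of 0.413 to 1.28 of the control level. Without knockout 4 it was -0.76 ± 0.21 (SE, unadjusted p = 0.00295 and adjusted p = 0.938 by limma). Knockout 4 was singled out by its Ppy value, so its omission narrows the spread, and nothing is read from that p. Without knockout 1 the difference was -0.24 (unadjusted p = 0.475 by limma), and without controls 2 and 5 it was also -0.24 (unadjusted p = 0.572 by limma).

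Knockout 4 stood apart on some other marker lists as well. Its summed neural and Schwann markers were 332.2, against 89.1 to 218.9 in the other 9 libraries, and the leukocyte gene Ptprc was 585.0 there, against 0 to 38.6. Other immune genes were mixed in knockout 4: Cd68 and C1qb were listed at 0, while C1qc, at 89.6, was the highest of the 10. Its PP markers other than Ppy and Pyy summed to 215.1, within the range of the other 9 libraries (87.2 to 505.6). Its alpha cell markers other than Gcg summed to 24072, the highest of the 10. The part of these differences in its Ppy level was not tested.

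Peptide YY showed the same ranking of extremes. Pyy was 2455.0, 2786.2, 2877.9, 6031.9 and 3680.4 in knockouts 1 to 5, against 3872.3, 5318.9, 2496.6, 3154.3 and 4666.7 in controls 1 to 5. Knockout 4 was again the highest library and knockout 1 the lowest, and the groups overlapped. The fitted log2 difference was -0.16 ± 0.24 (SE, adjusted p = 0.971 by limma, exact permutation p = 0.603). It was -0.37 when knockout 4 was left out and -0.04 when knockout 1 was. Leaving out control 3 gave -0.31 and leaving out control 2 gave -0.03, and the sign turned, to 0.11, without controls 2 and 5 together.

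**Figure D1:**
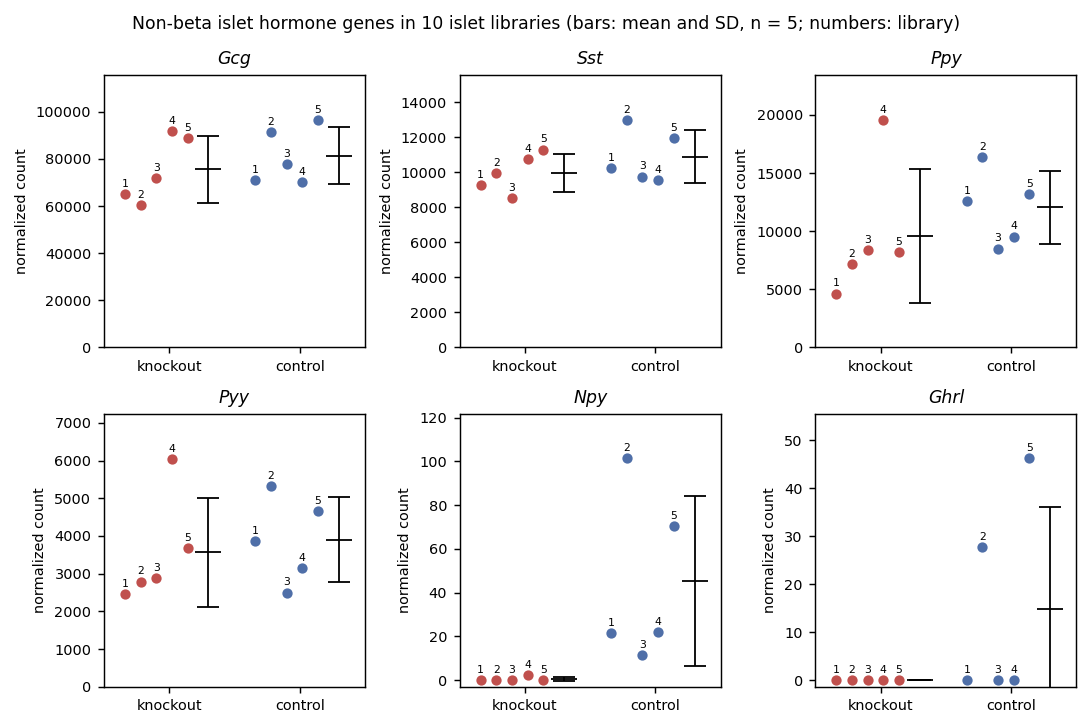
Normalized count of each hormone gene in each library, on linear axes, with knockouts left and controls right. Points are libraries, numbered within their group, and bars give the mean and SD of 5. Ppy and Pyy are highest in knockout 4, Npy is at or near 0 in the 5 knockouts, and Ghrl is above 0 in controls 2 and 5 only. The lower arm of the control Ghrl bar runs past the axis.

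Ppy and Pyy tracked each other across the 10 libraries. On log2 values Pearson's r was 0.914 (permutation p = 0.0001, adjusted p = 0.0006 over the 6 pairs of Gcg, Sst, Ppy and Pyy) and Spearman's rho was 0.879 (permutation p = 0.00151, adjusted p = 0.00906). Pearson's r stayed at 0.884 without knockouts 1 and 4, the libraries farthest from the median of Ppy, at 0.886 without controls 2 and 5, at 0.931 without controls 2, 3 and 5, and at 0.933 for deviations from the group means. Points share the library and its scaling factor.

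The other 5 pairs were weaker, with Pearson's r from 0.630 for Sst with Ppy to 0.785 for Gcg with Pyy, and permutation p-values adjusted over the 6 pairs of 0.0494 and 0.0168. Spearman's rho ran from 0.600 to 0.770, with an adjusted p of 0.072 for Sst with Ppy and at most 0.0362 for the other pairs. For Sst with Ppy, r was 0.450 without controls 2 and 5, which were also the farthest libraries on Sst, so that relation rests on them. Without these 2 controls r fell for the other pairs too. It was 0.605 for Gcg with Sst, 0.630 for Gcg with Ppy, 0.695 for Gcg with Pyy and 0.630 for Sst with Pyy. The p-values above include both controls, and whether these pairs would pass without them was not tested. The ratio between the neighbours still differed between libraries. Ppy was 189% to 324% of Pyy in knockouts and 283% to 341% in controls.

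**Figure D2:**
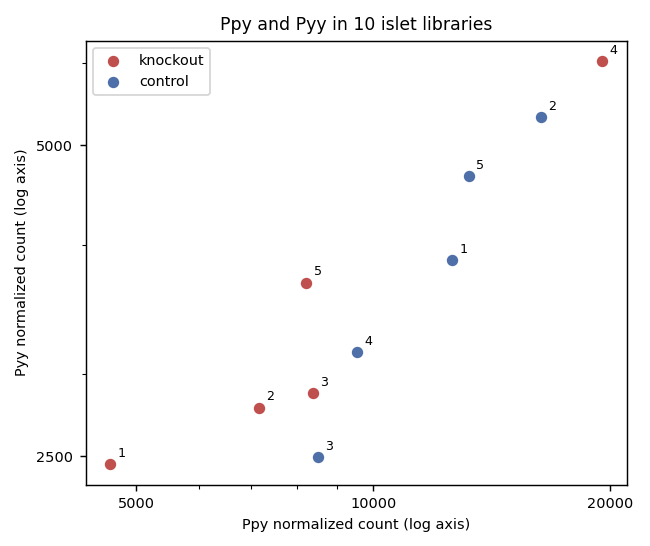
Pyy against Ppy normalized counts, both on log axes, 1 point per library, numbered within its group. The points run from knockout 1 at the lower left to knockout 4 at the upper right, with r = 0.914 over 10 libraries.

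The largest difference among the hormone genes was at a low level, in neuropeptide Y. As background, NPY is carried by sympathetic nerve fibres and, in rodents, is also made by islet cells around birth. Npy was listed at 0 in knockouts 1, 2, 3 and 5 and at 2.4 in knockout 4, against 21.6, 101.4, 11.5, 22.1 and 70.5 in controls 1 to 5. The groups did not overlap, which held for 0.862% of the genes tested and, in this direction, for 0.427%. Npy differed by -2.36 ± 0.64 on the log2 scale (SE, unadjusted p = 0.0016 and adjusted p = 0.881 by limma), and it did not pass the threshold of 0.05 over all genes. The exact permutation p of 0.00794 is the smallest that the arrangements of 10 libraries allow. A log2 fold change of -2 or below was found for 48 genes (0.41%).

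Npy entered the test through the controls alone, since a gene needed at least 10 normalized counts in at least 5 libraries, and 5 controls but 0 knockouts reached that. A gene that enters this way had to be lower in every knockout than in every control. The lack of overlap and the exact permutation p of Npy were therefore fixed by its entry. Nothing is read from them or from the shares given beside them. Commd8, Tmem81 and Npy were the 3 genes with at least 10 in every control and under 10 in every knockout, named after their values were seen, and 0 genes showed the reverse. The fitted size depended on the offset added before the logarithm: -4.75 with an offset of 1 and -1.12 with an offset of 32. Without controls 2 and 5, which held the highest values, it was -1.62 ± 0.63 (SE, unadjusted p = 0.0214 and adjusted p = 0.999 by limma). In the authors' deposited table Npy stands at -6.78 on the log2 scale (adjusted p = 0.00147), 1 of the 19 genes (0.136% of 13931) that pass 0.05 there and 1 of the 6 that are lower (0.0431%).

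The scale of the low values limits what a listed 0 means. The value in knockout 4 equals that library's commonest low value, 2.35. In knockout 1 the commonest low value was 3.55, the largest of the 10 libraries, and in knockout 3, the library with the smallest, it was 0.527. Of 35 proteasome subunit genes tested, which every cell uses, 2 were listed at 0 in at least 1 library, so a 0 is reported here as listed and not as absence. The sympathetic enzyme gene Th was 79.9 ± 37.9 in knockouts and 63.6 ± 9.14 in controls (SD, n = 5 each). The neural and Schwann list (8 of 9 genes in the table) summed to 89.1 to 332 in knockouts and 129 to 219 in controls, and its part in the Npy values was not tested. Dbh, the other noradrenergic enzyme gene of that list, was not analysed here.

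Ghrelin was seen in 2 libraries only. Ghrl was listed at 0 in all 5 knockouts and in controls 1, 3 and 4, and at 27.8 in control 2 and 46.3 in control 5. These are the 2 controls with the highest Npy and the only controls with Esr1 above 10.5. Ghrl did not reach 10 in 5 libraries and was left out of the fit, and an exact 2-sided permutation test of its log2 values gave p = 0.444. Mboat4, the enzyme that acylates ghrelin, was 24.8 in knockout 3, 8.6 in control 1 and listed at 0 in the other 8 libraries, so the epsilon cell markers did not point to the same libraries. The authors' deposited table gives Ghrl an adjusted p of 0.764.

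The hormone genes were then set against all genes tested. By limma, 0 of 11711 genes (0.0%) passed an adjusted p of 0.05, and 587 (5.01%) had an unadjusted p under 0.05. Of the 5 hormone genes tested, 1 had an unadjusted p under 0.05, Npy (2.66% of all genes did so in that direction). Nothing is read from that count, since Npy passed the filter through the controls alone. The 4 abundant hormones all had estimates below 0, as did 52.4% of all genes, with a median of -0.14 next to -0.03 over all genes. In the authors' deposited table Gcg, Sst, Ppy and Pyy have log2 fold changes of -0.11, -0.13, -0.33 and -0.13, each with an adjusted p of 0.999.

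**Figure D3:**
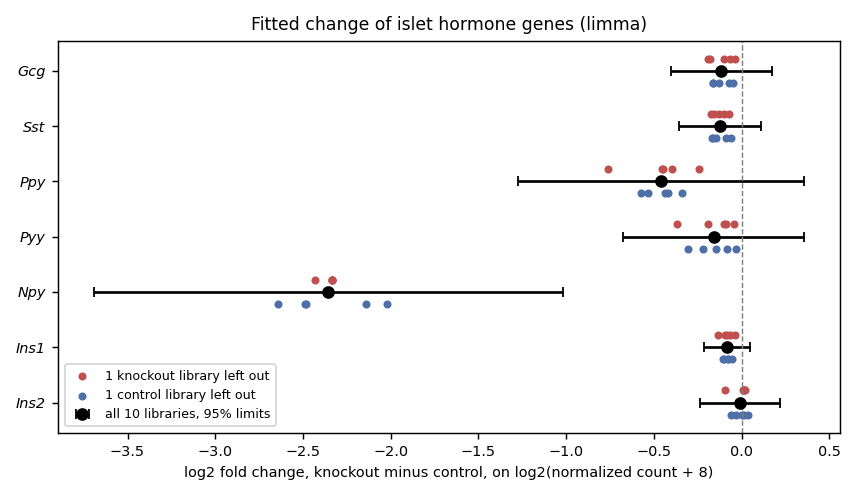
Log2 fold change, knockout minus control, of the 5 hormone genes tested and of the 2 insulin genes, on the log2(normalized count + 8) scale. Black points are the fit over 10 libraries with 95% limits, and coloured points leave out 1 library each. Only the limits of Npy (-3.69 to -1.02) lie clear of 0. Npy passed the filter through the controls alone, so its estimate had to be below 0, and its adjusted p was 0.881 by limma.

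Ratios within a library do not depend on how libraries were scaled to each other, and 6 were compared. Gcg was 8.09% ± 1.34 of the summed insulin genes in knockouts and 8.63% ± 1.76 in controls. Sst was 1.07% ± 0.10 of them in knockouts and 1.15% ± 0.24 in controls. Neither alpha nor delta hormone transcript shifted relative to insulin beyond the spread between libraries, with exact permutation p-values of 0.619 and 0.563. Ppy stood at 1.04% ± 0.66 of insulin in knockouts and 1.28% ± 0.41 in controls (exact permutation p = 0.310), and Pyy at 0.384% ± 0.164 in knockouts and 0.414% ± 0.143 in controls (exact permutation p = 0.698). Sst was 13.4% ± 2.01 of Gcg in knockouts and 13.4% ± 0.93 in controls, the smallest difference of the 6 (exact permutation p = 0.944). Ppy was 257% ± 53.6 of Pyy in knockouts and 312% ± 22.02 in controls, differing by -0.30 on the log2 scale with the smallest p of the 6 (exact permutation p = 0.0714, adjusted p = 0.429 over the 6 ratios). Knockouts 1, 2 and 5 lay below the lowest control on that ratio, at 189%, 257% and 223%. All values are mean ± SD with n = 5 per group.

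**Figure D4:**
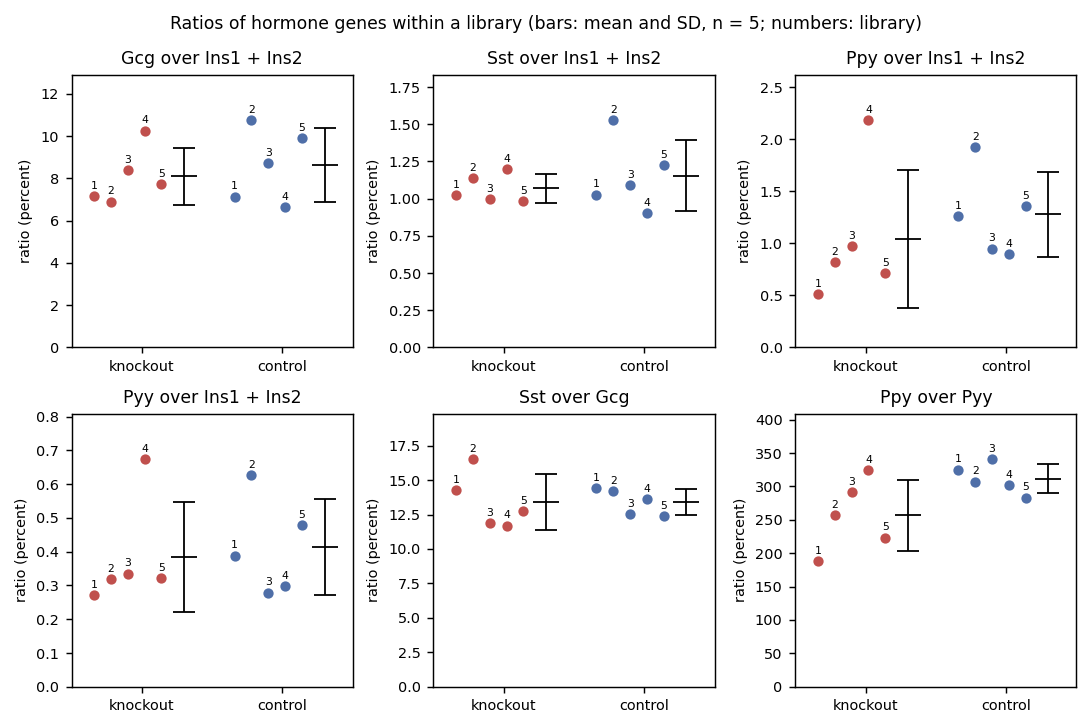
The 6 ratios in each library as percentages, on linear axes from 0, with knockouts left, controls right and bars for the mean and SD of 5. The groups overlap in all 6. Knockout 4 is the highest library for Ppy and for Pyy relative to insulin, at 2.18% and 0.674%.

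Among the genes whose ranking over the 10 libraries was most like each hormone, those given here were taken from 9099 genes with a mean of at least 50, by Spearman's rho, as a description. For Gcg they were Slc39a11 (0.939), Col20a1 (0.936) and Zfp442 (0.927). For Sst they were Clip3 and Pcsk1n (both 0.915), followed by Golga7, Higd2a, Mars and Tbc1d2b (all 0.903). For Ppy they were Nudc (0.964), Asnsd1 (0.952), Prpf6 and Zfp948 (both 0.927). For Pyy they were Zdhhc4 (0.952), then Rbm14 and Tbce (both 0.939). Pyy ranked 14 for Ppy, and Ppy ranked 9 for Pyy. Gcg ranked 138 for Ppy, and Sst ranked 169 for Gcg. These values rest on 10 points that share each library's scaling, and they carry no p.

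Receptors for these hormones were mostly low in islet RNA. The list also counts Gipr (estimate -0.25), the receptor gene for GIP, which is outside the hormone group. Of 17 receptor genes listed, 11 were in the table and 7 were tested, of which 6 had estimates below 0 (52.4% over all genes) and 1 above, with 0 passing over all genes. Glp1r, the β-cell receptor for the glucagon-gene product GLP-1, was 4178 ± 699 in knockouts and 5093 ± 845 in controls (SD, n = 5 each), differing by -0.29 ± 0.14 on the log2 scale (SE, adjusted p = 0.942 by limma). Cckar, the cholecystokinin receptor gene that acinar cells express, was 8.07 ± 13.8 in knockouts and 30.2 ± 19.0 in controls (log2 fold change -1.34 ± 0.71, unadjusted p = 0.0754 by limma). The acinar markers summed to 33654 to 86110 in knockouts and 23390 to 249434 in controls, with the highest value in control 4, and their part in the Cckar values was not tested. The somatostatin receptor gene Sstr2 was 11.1 ± 16.2 in knockouts and 28.2 ± 36.8 in controls (unadjusted p = 0.310 by limma). Sstr3 (678 ± 220 in knockouts and 751 ± 145 in controls) and the ghrelin receptor gene Ghsr (44.1 ± 42.0 in knockouts and 36.7 ± 33.1 in controls) overlapped between the groups. The glucagon receptor gene Gcgr had a higher mean in knockouts (67.8 ± 53.8) than in controls (60.1 ± 36.2) but a fitted log2 value of -0.18, so its direction depends on the scale. Npy1r, the neuropeptide Y receptor gene measured here, was above 0 in 1 library.

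Genes that cut, package and store prohormones had mostly positive estimates. Of 14 listed, all were in the table and 12 were tested, with 10 estimates above 0 and 2 below, a median of 0.14 and 0 passing over all genes. Over all genes 52.4% of estimates were below 0 and the median was -0.03. The listed genes share each library's scaling, so nothing is read from the count of signs. At an unadjusted p under 0.05 there were 2 higher and 1 lower, against 5.01% of all genes in either direction. Scg2, a granin packed with hormones in dense-core granules, was 46176 ± 7041 in knockouts and 37314 ± 4413 in controls (log2 fold change 0.30 ± 0.10, unadjusted p = 0.00762 and adjusted p = 0.942 by limma). Chgb, another granin, was 17293 ± 551 in knockouts and 15329 ± 1435 in controls (0.18 ± 0.08, unadjusted p = 0.0479 by limma). Furin, a general proprotein convertase, was 297 ± 54.5 in knockouts and 500 ± 195 in controls (-0.67 ± 0.31, unadjusted p = 0.0449 by limma). Pcsk2, the convertase that releases glucagon from its precursor, was 15923 ± 1681 in knockouts and 14865 ± 1148.5 in controls, and Pcsk1, which releases GLP-1 from the same precursor, was 3265 ± 1345 in knockouts and 2621 ± 131 in controls, with 5590.1 in knockout 1.

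For transcription factors of the non-β endocrine cells, 0 passed the test. Of 17 listed, 16 were in the table and 14 were tested, with 8 estimates above 0 and 6 below, a median of 0.11, and 0 at an unadjusted p under 0.05. Over all genes 52.4% of estimates were below 0, the median was -0.03 and 5.01% had an unadjusted p under 0.05 by limma. With so few genes in the list, nothing is read from the 0. Insm1, a zinc finger factor of endocrine cells, had the smallest p (737 ± 140 in knockouts and 569 ± 182 in controls, unadjusted p = 0.143 by limma). Neurod1 was 1308 ± 236 in knockouts and 1534 ± 95.8 in controls, and Isl1 was 629 ± 212 in knockouts and 758 ± 144 in controls. Hhex, a factor of delta cells, was 30.8 ± 18.1 in knockouts and 35.9 ± 26.3 in controls. It was listed at 0 in knockout 1 only.

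Among 28 other peptide hormone genes, 18 were in the table and 6 were tested, with 3 estimates above 0, 3 below (52.4% below 0 over all genes) and 0 passing over all genes. Pdyn, which encodes the opioid precursor prodynorphin and is counted here among the delta cell markers, was higher in every knockout than in every control, as were 0.435% of the genes tested. It was 1037.7, 731.1, 672.2, 647.0 and 943.0 in knockouts 1 to 5, against 417.7, 365.8, 507.4, 614.1 and 432.6 in controls 1 to 5. Pdyn differed by 0.77 ± 0.25 on the log2 scale (SE, unadjusted p = 0.00551 and adjusted p = 0.942 by limma), and it was 0.64 without controls 2 and 5. The estimate of Sst, by contrast, was below 0. Vip, a neuronal peptide gene, was listed at 0, 22.4, 0, 28.2 and 0 in knockouts 1 to 5, against 0, 91.5, 87.7, 39.5 and 83.6 in controls 1 to 5 (log2 fold change -1.84 ± 0.81, unadjusted p = 0.0348 and adjusted p = 0.942 by limma). Without controls 2 and 5 it was -1.23 (unadjusted p = 0.204 by limma). Ucn3, a β-cell peptide gene, was 1671 ± 108 in knockouts and 1964 ± 364 in controls, and Iapp, which encodes the β-cell peptide amylin, had an estimate of -0.06.

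**Figure D5:**
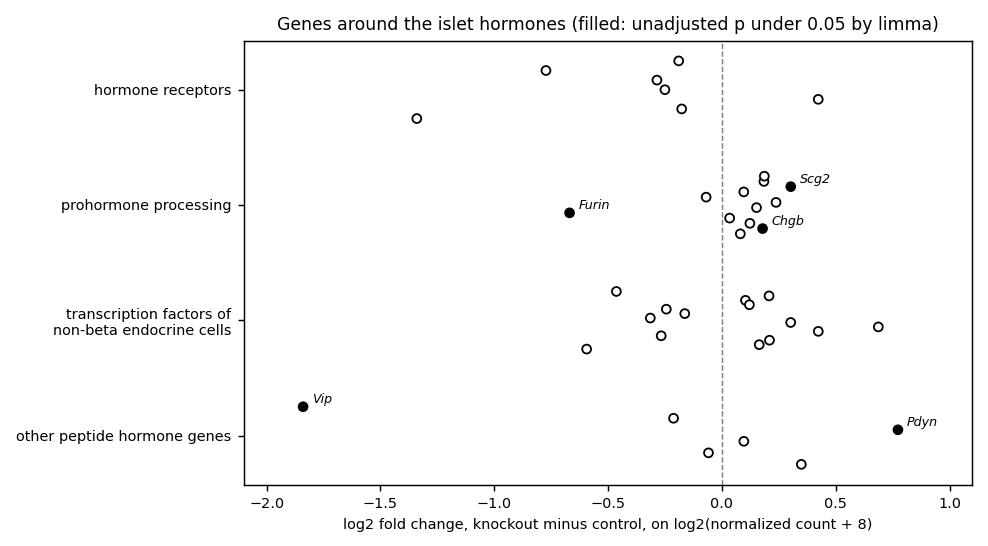
Log2 fold change, knockout minus control, of each tested gene of 4 lists, 1 point per gene, on the log2(normalized count + 8) scale. Filled points, which are named, had an unadjusted p under 0.05 by limma, and 0 genes passed after adjustment over all 11711. Pdyn (0.77) and Vip (-1.84) are the extremes of the peptide list.

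Markers of each endocrine cell type other than the hormones gave a further view of the same cells. The alpha list without Gcg (13 genes) summed to 14563 to 24072 in knockouts and 13904 to 20024 in controls. Ttr was the largest single part of that sum, at 9555 ± 1863 in knockouts and 7192 ± 1623 in controls (SD, n = 5 each, unadjusted p = 0.0179 by limma), while Gcg itself had an estimate below 0. Gc, another alpha marker, was 733 ± 202 in knockouts and 346 ± 82.1 in controls (log2 value 1.05 ± 0.29, unadjusted p = 0.00205 and adjusted p = 0.896 by limma). The delta list without Sst (9 genes) summed to 2441 to 3253 in knockouts and 2047 to 2617 in controls. Without Pdyn the other 8 summed to 1508 to 2310.5 in knockouts and 1629 to 2063 in controls, with means of 1913 ± 304 in knockouts and 1886 ± 185 in controls (SD, n = 5 each). With Sst, the delta list had 4 estimates above 0 and 6 below, with a median of -0.13. The PP list without its hormones (5 genes) summed to 87.2 to 284 in knockouts and 96.8 to 506 in controls. Vsig1, of that list, was listed at 0 in all knockouts and in 4 of 5 controls, and at 17.3 in control 1. The β-cell list (11 genes) had 11 estimates below 0, where 52.4% of all genes did, and a median of -0.21 next to -0.03 over all genes, with 0 genes passing. These genes share a cell type and each library's scaling, and the estimate of Ins2 was -0.009, so nothing is read from the count. The smallest p of the β-cell list was that of the glucose transporter gene Slc2a2, at 2120 ± 514 in knockouts and 2923 ± 299 in controls (unadjusted p = 0.0103 and adjusted p = 0.942 by limma).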

How the data were processed

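Islet RNA of 10 libraries was depleted of ribosomal RNA and converted with a stranded random-primed kit, per the labels' protocols. STAR 2.4.0.1, HTSeq and DESeq2 appear in the submitters' processing notes with no role stated, and no build or annotation is named. The deposited values are the authors' normalized counts, a signal that is not in whole reads. The authors' deposited table also lists their own log2 fold changes, errors, score, p-values and adjusted p-values, quoted only where it is named. The 1 row with no gene name was left out (0.00774% to 0.0251% of a library).

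The members and gene lists were chosen with earlier results of these data known. Genes with at least 10 normalized counts in at least 5 libraries were kept, 11711 in all. The values were taken as log2(value + 8), a scale that understates the change of low genes, and fitted with limma 3.58.1 (R 4.3.3; trend and robust options) and Benjamini-Hochberg adjustment. No count model was used, since the values are not counts. Ratios and single genes were compared with exact 2-sided permutation tests over libraries, and correlations with 100000 permutations, in Python 3.11.15 with scipy 1.17.1. Since separate animals are not stated, every p-value reflects library-to-library spread, which may be technical. Genes outside the hormone group were named by a fixed rule: up to 3 of each list by p, and the 3 (with ties) most like each hormone; some of these are not reported here. Any other gene, the pairwise correlations and their alternatives, the promoter motifs, the proteasome check and the pattern of Npy across groups were chosen after the values were seen. The fitting code was also tested on simulated data. Alternatives were other offsets, filters, scalings (equal totals, and a trimmed mean of M-values computed with code written here in place of the packaged routine first planned), library weights and the omission of libraries, which kept the same 11711 genes. Promoters are RefSeq's on GRCm38.p6.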

Additional observations from a re-analysis of the deposited data

Results flagged for a closer look

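In knockouts, 5 values lay far from the other 4 libraries of their group, out of 29 groups of 5 examined. Chance gives about 1 in 20 for independent groups, but these groups share libraries and genes, so no excess is read from the count. Knockout 4 held 3 of the hormone values: Ppy at 19558.3 normalized counts, Ppy at 2.18% of the summed insulin genes and Pyy at 0.674% of them. It also held the only Npy value above 0 among the knockouts, 2.4, and with the other 4 at 0 any such value would have been flagged. Ins2 was 803858.1 in knockout 5, above the other 4 knockouts (588745.5 to 599965.2).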

How the results depend on the processing

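No paired analysis was possible because libraries carry no replicate number in the labels. The number of genes passing over all genes was 0 in 16 of 19 alternatives, 1 without controls 2 and 5 (Esr1), 4 without controls 2, 3 and 5 (Esr1, Herc4 and Chd9 higher, Amy2a1 lower), and 0 to 1 with single libraries left out, the 1 without control 1 (Ppp4r1l-ps). No hormone gene passed in any alternative run (adjusted p from 0.643 to 0.999). The cause of the reversals below was not tested.

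Without controls 2 and 5 the log2 fold changes turned to 0.030 for Gcg, 0.010 for Sst and 0.11 for Pyy, and those of the ratios to insulin to 0.11 for Gcg, 0.087 for Sst and 0.19 for Pyy. Without controls 2, 3 and 5 they were 0.077 for Gcg and 0.0038 for Sst, and for the ratios 0.22, 0.15 and 0.093 in the same order. Ppy, Npy and the ratios of Ppy kept their sign in every alternative that gave a value. Npy gives none at a minimum of 50. Ghrl is below the filter, and with no filter it was -0.99 (adjusted p = 0.899 by limma). The ratios of Gcg, Sst and Pyy to insulin also turned without control 2 alone, and Sst over Gcg turned without knockout 3, 4 or 5 or control 1 or 2.

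With single libraries left out, Gcg ran from -0.19 to -0.04, Sst from -0.17 to -0.06, Ppy from -0.76 to -0.24, Pyy from -0.37 to -0.03 and Npy from -2.64 to -2.02. The log2 ratios ran from -0.17 to 0.0032 for Gcg over insulin, -0.18 to 0.014 for Sst, -0.74 to -0.22 for Ppy, -0.35 to 0.040 for Pyy, -0.088 to 0.036 for Sst over Gcg and -0.39 to -0.20 for Ppy over Pyy. Npy and Ghrl were low, with means of 22.9 and 7.42 normalized counts over the 10 libraries.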
